A study of Mus musculus with 45 samples.

Results

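Liver gene expression was compared between mice fed a high-cholesterol diet (HCD) with an extract of the medicinal mushroom Ganoderma lucidum, named Gl-1, and mice fed the same diet with the cholesterol-lowering drug simvastatin (Sim). The comparison used the 3 liver arrays labelled HCD+Gl-1 and the 3 labelled HCD+Sim, 6 of the 45 arrays of the series, chosen by their labels alone, and all 22080 genes of the deposited table. All of these animals were male C57BL/6 mice, 7 weeks old by the labels, kept on AIN-93 chow with 0.5% cholesterol. The Gl-1 diet held 1% of a freeze-dried water and alcohol extract (32% alcohol by volume) of fruiting bodies grown on oak sawdust. The Sim diet held 0.03% simvastatin by weight. Tissue was taken on day 43 after 8 h without food and water. The liver groups HCD, with no addition, and Control, on AIN-93 chow without cholesterol, are quoted as background with 3 arrays each, and so at times is HCD+Gl-2, an extract of the mushroom grown on sawdust with acetylsalicylic acid.

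Each group had 8 mice, and RNA was pooled before hybridization to Affymetrix Mouse Gene ST v1.0 arrays. By the study's methods, pools A and B held different mice and pool C was a mixture of A and B, so that the 3 arrays of a group stood for 2 separate pools of animals. Expression is given on the log2 scale throughout, so that a difference of 1 is a 2-fold change, and every difference is HCD+Gl-1 minus HCD+Sim unless another is named. A gene was called differentially expressed (DE) when its adjusted p from limma was 0.05 or less and its log2 difference exceeded 0.7 in either direction. The description field of the labels names brain for these samples while their titles name liver. Hepatocyte genes were at liver levels on all 6 arrays, with a mean over 19 markers of 12.56 to 12.63 against 7.79 to 7.95 in the kidney arrays and 5.90 to 6.41 in the brain arrays.

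The HCD+Sim arrays A and B stood apart from every other liver array in their mean level of acinar pancreas genes and from the Gl-1 and HCD arrays in that of skeletal muscle genes, and array C often lay outside the range of A and B, the pools of which it was mixed. Array C fell between A and B for 26.8% of the genes in HCD+Gl-1 and for 26.1% in HCD+Sim. In HCD, HCD+Gl-2 and Control liver the share was 32%, 33.4% and 26.7%. Array C was more than 1 log2 unit below both A and B for 8 genes in HCD+Gl-1 and for 30 in HCD+Sim. In HCD, HCD+Gl-2 and Control it was so for 2, 5 and 9 genes. Correlations between arrays of a group were 0.9887 to 0.9939. Values that rest on the HCD+Sim arrays A and B are therefore given with array C beside them.

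Simvastatin blocks the synthesis of cholesterol, and cells short of sterol answer through the SREBP transcription factors, which drive genes of sterol synthesis and uptake. In the liver, the nuclear receptor PPAR alpha drives fatty acid oxidation, and cytochrome P450 enzymes handle bile acids, hormones and foreign compounds. Major histocompatibility complex (MHC) class II proteins present peptides to helper T cells. They are made by dendritic cells, B cells and macrophages, and many other cells make them under interferon gamma, which also induces the chemokine CXCL9 and families of large guanosine triphosphatases.

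Between the treatments 55 genes were DE, 0.249% of those tested. Of these, 12 were higher with Gl-1 (0.0543%) and 43 were lower with Gl-1 (0.195%). Among the 43 lower genes, 22 belonged to the lists of acinar pancreas or skeletal muscle genes and 21 did not. The 3 arrays of one group lay wholly above the 3 of the other for 45 of the 55 genes, 8 of them higher and 37 lower with Gl-1. Among all 22080 genes 3531 (16%) had groups that did not overlap, 813 with Gl-1 above (3.68%) and 2718 with Gl-1 below (12.3%). Without a fold threshold, 902 genes (4.09%) passed the adjusted p, 354 higher (1.6%) and 548 lower with Gl-1 (2.48%). The spread was estimated over all 45 arrays, and a fit to the 15 liver arrays alone called 15 of the 55 genes and no other. A fit to the 6 compared arrays called 7 of them, namely Cd74, H2-Aa, H2-Ab1, H2-Eb1, Cxcl9, Rarres1 and the gene model BC023105.

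The genes for the chains of the main MHC class II molecules and for the invariant chain were lower with Gl-1 than with simvastatin. Of the 10 measured class II genes, 4 were DE and all 4 were lower with Gl-1, and 6 passed the adjusted p. For 7 the Gl-1 arrays lay wholly below the Sim arrays, where 12.3% of all genes did so. The list median was -0.43 against -0.05 for all genes. This list was drawn up after the values had been seen, as the leading genes had no place in the other lists, and its count is a description. The 4 were called DE in each of the alternative fits set out below, that to the 6 arrays included, and 3 of them, all but H2-Eb1, against HCD+Sim array C alone. The promoter windows of H2-Aa and H2-Eb1 are shown because both genes carry the Y box, a CCAAT motif of class II promoters that is bound by NF-Y and searched here as CTGATTGG or its reverse complement. Those of Gbp2 and Tgtp2 are shown because both carry the interferon-stimulated response element, searched as TTTC, 2 bases of any kind and TTTC, and Tgtp2 also a gamma-activated site, searched as TTCNNNGAA. Each window runs 5′ to 3′ on the strand of its gene, from 250 bases before to 50 bases after the start of transcription, and the sequences are those of RefSeq on build GRCm38.p6. Capitals mark the matches. The windows are chr17:34287774-34288073 on the minus strand for H2-Aa, chr17:34305617-34305916 on the plus strand for H2-Eb1, chr3:142620413-142620712 on the plus strand for Gbp2 and chr11:49064163-49064462 on the minus strand for Tgtp2.
H2-Aa: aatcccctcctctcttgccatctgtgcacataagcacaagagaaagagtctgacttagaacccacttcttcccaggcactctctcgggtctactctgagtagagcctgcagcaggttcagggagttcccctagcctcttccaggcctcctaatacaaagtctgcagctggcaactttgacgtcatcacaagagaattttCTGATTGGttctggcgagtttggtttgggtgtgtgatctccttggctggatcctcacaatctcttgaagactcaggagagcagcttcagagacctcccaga
H2-Eb1: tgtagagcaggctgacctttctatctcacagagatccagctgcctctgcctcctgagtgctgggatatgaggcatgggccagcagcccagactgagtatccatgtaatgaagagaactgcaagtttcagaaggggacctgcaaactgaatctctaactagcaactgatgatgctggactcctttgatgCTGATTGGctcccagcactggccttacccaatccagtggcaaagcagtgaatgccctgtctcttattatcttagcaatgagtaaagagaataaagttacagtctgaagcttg
Gbp2: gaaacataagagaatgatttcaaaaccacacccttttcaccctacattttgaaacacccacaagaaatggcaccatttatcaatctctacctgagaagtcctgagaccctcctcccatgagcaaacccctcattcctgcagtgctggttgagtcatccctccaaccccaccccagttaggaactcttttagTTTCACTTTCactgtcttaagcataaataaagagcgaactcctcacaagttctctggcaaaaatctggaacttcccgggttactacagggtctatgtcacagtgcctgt
Tgtp2: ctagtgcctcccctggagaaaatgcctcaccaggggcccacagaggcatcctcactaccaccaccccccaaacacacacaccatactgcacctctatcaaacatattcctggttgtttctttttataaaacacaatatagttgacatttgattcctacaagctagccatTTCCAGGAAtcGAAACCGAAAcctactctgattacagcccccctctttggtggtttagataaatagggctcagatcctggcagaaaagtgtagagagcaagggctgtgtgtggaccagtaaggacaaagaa

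The Y box began 51 bases before the start of transcription in H2-Aa and 62 bases before it in H2-Eb1. It was found in 4 of 9 promoter windows of the class II list and in 4.1% of all 32851 windows. The others of these 4 were H2-Eb2 and H2-Oa, which were not DE (-0.27 and -0.11). The response element of Gbp2 began 59 bases before the start, and that of Tgtp2, read on the other strand, 70 bases before it. In the list of interferon gamma genes 12 of 16 windows held this element and 8 of 16 held the gamma-activated site, against 3.44% and 8.3% of all windows. Cd74, H2-Ab1 and Ciita had no window to search. The window of Cxcl9 held a Y box and neither of the other motifs. A match describes letters and is no evidence that a factor was bound in these livers.

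Cd74, the invariant chain that escorts class II molecules to the compartment where they are loaded, read 9.43, 9.49 and 9.23 on the HCD+Gl-1 arrays A, B and C and 10.48, 10.37 and 10.45 on the HCD+Sim arrays. The groups were separated by more than their whole spread. The log2 difference was -1.05 (SE 0.08), a 2.07-fold lower level with Gl-1 (limma adjusted p = 4.6e-11). H2-Ab1, the class II beta chain of the A molecule, read 8.61, 8.53 and 8.34 with Gl-1 and 9.49, 9.55 and 9.57 with Sim, again without overlap, and differed by -1.05 (SE 0.08, limma adjusted p = 4.6e-11). Its partner chain H2-Aa read 8.56, 8.60 and 8.39 against 9.49, 9.61 and 9.51 and differed by -1.02 (SE 0.13, limma adjusted p = 4.9e-06). The beta chain of the E molecule, H2-Eb1, was at 7.57, 7.71 and 7.50 against 8.31, 8.43 and 8.27, a difference of -0.75 (SE 0.10, limma adjusted p = 3.4e-05).

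Set against the cholesterol diet alone, the means of all 4 genes were lower with Gl-1 and higher with Sim, and for 2 of the 4 the difference from HCD passed the adjusted p with both. The mean of Cd74 was 9.79 ± 0.01 in HCD and 9.73 ± 0.11 in Control (SD, n = 3 each), between the 2 treatments. Against HCD, Cd74 differed by -0.41 with Gl-1 (limma adjusted p = 0.0035) and by 0.64 with Sim (limma adjusted p = 1.4e-05). H2-Ab1 differed from HCD by -0.30 with Gl-1 (limma adjusted p = 0.040) and by 0.75 with Sim (limma adjusted p = 3.9e-07), and of these 4 values the last alone was past both thresholds. H2-Aa differed from HCD by -0.31 with Gl-1 (limma adjusted p = 0.18) and H2-Eb1 by -0.25 (limma adjusted p = 0.20). With Sim, H2-Aa differed from HCD by 0.701 (limma adjusted p = 0.0014), which was past both thresholds, and H2-Eb1 by 0.50 (limma adjusted p = 0.0085). These differences share the HCD arrays, and the one between the treatments is made of them.

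Other parts of the class II pathway moved less. H2-DMb2, a subunit of the peptide exchange factor, differed by -0.52 and Ciita, the master regulator of class II transcription, by -0.33, both with an adjusted p under the threshold (0.00095 and 0.021 by limma) but short of the fold required. H2-Oa and H2-Ob, subunits of the modulator of that exchange factor, differed by -0.11 and 0.01. None of 8 genes of class I presentation was DE, with a median of -0.13. For 4 of the 8 the Gl-1 arrays lay wholly below the Sim arrays, where 12.3% of all genes did so. The peptide transporter gene Tap1 differed by -0.31 (limma adjusted p = 0.039), the proteasome subunit gene Psmb8 by -0.24 and the heavy chain H2-D1 by -0.19. B2m, the light chain shared by class I molecules, differed by 0.03 (95% interval -0.11 to 0.17) and the heavy chain H2-K1 by 0.06 (-0.10 to 0.22).

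Of the 19 measured genes of the interferon gamma list, which was also drawn up after the values had been seen, 3 were DE. All 3 were lower with Gl-1, where 0.195% of all genes were DE and lower, and the list median was -0.26. A list of interferon-stimulated genes, which was not drawn up in that way and shares members with it, had 27 measured genes. Of these 2 were DE, Cxcl9 and Gbp2. The median of that list was -0.07 against -0.05 for all genes, and 8 of the 27 were higher with Gl-1 by sign. Cxcl9, the chemokine that draws activated T cells, read 8.10, 7.90 and 7.61 with Gl-1 and 9.26, 9.52 and 8.76 with Sim. The groups did not overlap, array C being the lowest of each. The difference was -1.31 (SE 0.15), a 2.48-fold lower level (limma adjusted p = 1.5e-06). Tgtp2, a T cell specific guanosine triphosphatase, read 7.78, 7.39 and 7.57 against 8.48, 8.41 and 8.31 and differed by -0.82 (limma adjusted p = 1.4e-06), and its probes may also read the near-identical Tgtp1. Gbp2, a guanylate-binding protein, read 6.31, 6.21 and 6.43 against 6.92, 7.09 and 7.05. Its groups did not overlap either, but its difference of -0.70 (limma adjusted p = 7.6e-05) lay just past the fold threshold, and the call was lost without HCD+Gl-1 array B (-0.65), HCD+Sim array B (-0.67) or HCD+Sim array C (-0.69).

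**Figure D1:**
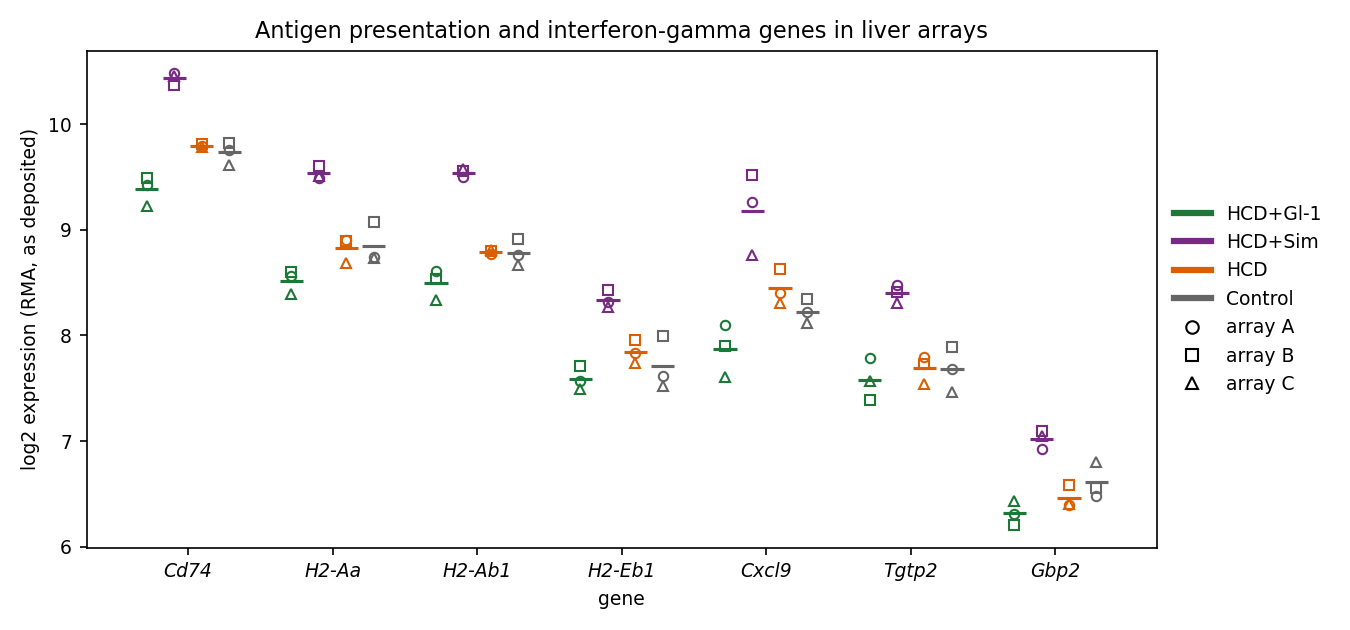
Log2 expression of 4 class II genes and 3 interferon gamma genes on each liver array, with one point per array (circle A, square B, triangle C) and a bar at the mean of the 3 arrays of a group. The HCD+Sim arrays lie above the HCD+Gl-1 arrays for all 7 genes, by 0.70 to 1.31 on average, and HCD and Control lie between or near the lower group.

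The other members differed in size and sign. The guanosine triphosphatases Igtp (-0.45) and Gm12250 (-0.51), the chemokines Cxcl10 (-0.44) and Cxcl11 (-0.34) and the transcription factor Irf1 (-0.42) passed the adjusted p but not the fold. Gbp10, Gbp4 and Gbp11 differed by -0.06, -0.13 and -0.09. Iigp1 and Irgm1, of the same family as Igtp, differed by 0.33 and 0.25 in the other direction, with limma adjusted p-values of 0.089 and 0.23.

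The marker lists of the cells that carry class II were set beside these values. None of 8 dendritic cell genes was DE (median -0.14, range -0.26 to 0.08), and the mean of the list was 6.10 to 6.18 with Gl-1 and 6.13 to 6.40 with Sim. None of 25 B and T cell genes was DE (median -0.19), with list means of 5.73 to 5.86 and 5.90 to 6.14. The B cell receptor subunit Cd79a differed by -0.57 (limma adjusted p = 0.039). Il2rb differed by -0.49 (limma adjusted p = 0.0032) and the T cell receptor subunit Cd3g by -0.38 (limma adjusted p = 0.029). These 3 were the members of the list that passed the adjusted p. By sign 24 of the 25 were lower, as were 14 of 15 kidney, 12 of 15 brain and 5 of 19 hepatocyte marker genes. The median of all genes was -0.05. The T cell receptor subunit Cd3e differed by -0.19. None of 25 macrophage and neutrophil genes was DE (median -0.17), with list means of 6.78 to 6.93 and 6.94 to 7.09. The Kupffer cell receptor Clec4f differed by -0.07 and the macrophage glycoprotein Cd68 by -0.28. The members of that list that passed the adjusted p were Cd163, a scavenger receptor, at 0.43, Ly6c2, of inflammatory monocytes, at -0.32 and Csf1r, the receptor that macrophages need for survival, at -0.30. None of 20 genes of liver endothelium and stellate cells was DE, but 5 passed the adjusted p, all lower with Gl-1. Among them were the endothelial genes Cdh5 and Clec4g (both -0.31) and Des (-0.64), which is also on the skeletal muscle list. Des read 7.46, 7.67 and 6.52 on the HCD+Sim arrays A, B and C, the last within the range of the Gl-1 arrays. The Gl-1 arrays lay wholly below the Sim arrays for 9 of the 20, where 12.3% of all genes did so. The list median was -0.21, and the list means were 8.39 to 8.45 with Gl-1 and 8.59 to 8.64 with Sim. The share of these cells in the class II difference was not tested. In bulk liver, fewer cells of a type and less RNA per cell cannot be told apart.

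Among the DE genes were 3 immunoglobulin kappa segments, named after their values were seen, and no list of such segments was counted. Igkv6-14 read 4.92, 5.01 and 4.74 with Gl-1 and 5.79, 6.50 and 5.37 with Sim, a difference of -1.0 (limma adjusted p = 0.0079). Igk-V1 differed by -0.72 (limma adjusted p = 0.0039) and another kappa segment by -0.71 (limma adjusted p = 0.049), all without overlap, and this last one kept its call in 1 of 6 fits with an array left out. Trat1, a T cell receptor adaptor protein, was at 3.19, 3.37 and 3.49 against 4.36, 4.72 and 3.58, so that its HCD+Sim array C lay close to the Gl-1 arrays. It differed by -0.87 (limma adjusted p = 0.0013), and by -0.62 without array B, when the call was lost. Igkv6-14 lost its call without HCD+Gl-1 array C (-0.92) or HCD+Sim array B (-0.69), and Igk-V1 without HCD+Gl-1 array C (-0.65) or HCD+Sim array A (-0.64). Near-identical segments can share probes, so single kappa genes are uncertain.

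Hemoglobin transcripts were lower with Gl-1. Hbb-bs, a beta globin chain, read 10.81, 10.91 and 10.68 with Gl-1 against 11.62, 11.81 and 11.29 with Sim, without overlap. The difference was -0.77 (SE 0.11, limma adjusted p = 3.6e-05), and HCD, at 11.45 ± 0.07 (SD, n = 3), lay with Sim. Without HCD+Sim array B the difference was -0.65, short of the call. The alpha chain Hba-a2 differed by -0.68 and fell short of the fold threshold, while Alas2, the erythroid enzyme of heme synthesis, differed by -0.10 (limma adjusted p = 0.50). Of the 12 measured erythroid genes 1 was DE.

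The genes furthest apart, Amy2a5 and Ctrb1, were of the exocrine pancreas. Of 42 measured genes of the acinar pancreas list, 14 were DE and lower with Gl-1, where 0.195% of all genes were. As lower, 22 passed the adjusted p, where 2.48% of all genes did. The list median was -0.36 against -0.05 for all genes. By sign 38 were lower, and so were 14 of 15 kidney and 12 of 15 brain marker genes. Amy2a5, pancreatic amylase, read 6.77, 6.46 and 6.83 with Gl-1 and 9.34, 9.88 and 7.10 with Sim. The arrays A and B of HCD+Sim were high, array C was close to the Gl-1 arrays, and HCD stood at 6.95 ± 0.10 (SD, n = 3). The difference was -2.09 (SE 0.30), a 4.26-fold lower level (limma adjusted p = 3.6e-05). Ctrb1, a chymotrypsinogen, read 6.89, 6.81 and 6.92 against 9.14, 9.69 and 6.95, and differed by -1.72 (SE 0.29, limma adjusted p = 0.00041). Carboxypeptidase A1, from Cpa1, read 5.84, 6.07 and 6.09 against 7.57, 8.40 and 6.35 and differed by -1.44 (limma adjusted p = 0.00014).

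The pancreatic enzymes of fat digestion had the same form. Pnlip, pancreatic lipase, read 5.09, 5.31 and 5.42 with Gl-1 and 6.57, 7.14 and 5.68 with Sim, a difference of -1.19 (limma adjusted p = 0.00012). Clps, its cofactor colipase, was at 6.94, 6.89 and 6.73 against 8.11, 8.60 and 7.00 and differed by -1.04 (limma adjusted p = 0.0012). In both, array C of HCD+Sim lay nearest to the Gl-1 arrays. Cel, the bile salt-stimulated lipase, differed by -1.27 and the lipase-related Pnliprp1 by -0.99. Pnliprp1, Rnase1 (-1.53), Cpb1 (-1.40) and the elastase gene Cela2a (-1.0) were DE although their groups overlapped. The others were Ctrl (-1.32), Reg1 (-0.80), Zg16 (-0.77) and the gene model 2210010C04Rik (-1.62), for 14 in all. None of 17 islet genes was DE, with a median of -0.10, although 15 were lower by sign and Pyy, a peptide hormone, passed the adjusted p at -0.33 (limma adjusted p = 0.025). The islet hormone genes Ins1, Ins2 and Gcg differed by -0.04, -0.21 and -0.08.

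Skeletal muscle genes had the same pattern over the arrays. Of 48 measured members 8 were DE and lower with Gl-1, where 0.195% of all genes were. As lower, 24 passed the adjusted p, where 2.48% of all genes did. The list median was -0.40 against -0.05 for all genes. By sign 47 were lower, and so were 14 of 15 kidney and 12 of 15 brain marker genes. Atp2a1, the calcium pump of fast muscle, read 6.74, 6.72 and 6.86 with Gl-1 and 8.98, 9.54 and 6.88 with Sim, and array C of HCD+Sim was at the level of the Gl-1 arrays. It differed by -1.70 (SE 0.28, limma adjusted p = 0.00043). Myh1, a fast myosin heavy chain, read 4.93, 4.97 and 4.89 against 6.78, 7.26 and 5.43 and differed by -1.56 (limma adjusted p = 0.00012). Skeletal alpha actin, from Acta1, was at 6.98, 7.37 and 7.11 against 9.0, 9.73 and 7.28, with array C below the highest Gl-1 array, and differed by -1.52 (limma adjusted p = 0.00076). The other 5 were the myosin genes Myh4 (-1.33), Myl1 (-1.30) and Myh2 (-0.99), the tropomyosin gene Tpm2 (-1.09) and the troponin gene Tnnc2 (-1.08). Ckmt2, a mitochondrial creatine kinase of muscle that was not on the list, was at 4.73, 5.03 and 5.04 against 5.76, 6.09 and 5.26 and differed by -0.77 (limma adjusted p = 0.00076).

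For all 22 acinar and muscle genes the HCD+Sim arrays A and B were above every Gl-1 and every HCD array. Against the mean of the Gl-1 arrays, array A was higher by 0.66 to 2.66, array B by 1.01 to 3.20, and array C by -0.10 to 0.63. Array C was below both A and B in all 22. The mean over the 42 acinar genes was 5.84, 5.93 and 5.88 on the Gl-1 arrays, 6.54, 6.82 and 6.04 on the HCD+Sim arrays A, B and C, and 5.82 to 5.99 on the 9 other liver arrays. That of the 48 muscle genes was 6.14, 6.22 and 6.25 with Gl-1, 6.72, 7.00 and 6.40 with Sim, 6.25 to 6.40 in HCD and 6.46 to 6.68 in Control, so that Control came close to HCD+Sim array A. Acta1 was at 8.36, 8.65 and 8.16 and Atp2a1 at 7.78, 8.04 and 7.65 in Control. Against array C of HCD+Sim alone, an alternative chosen after the values had been seen, none of the 42 acinar and none of the 48 muscle genes was DE. Leaving out array B of HCD+Sim gave 9 acinar and 7 muscle genes, and leaving out array C gave 19 and 16. In the fit to the 15 liver arrays none of the acinar genes and 1 muscle gene, Tpm2, was. Hepatocyte genes did not move with them: none of 19 was DE (range -0.13 to 0.16), and Alb, serum albumin, differed by 0.04. Whether pieces of pancreas and muscle were in the dissected livers was not tested.

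**Figure D2:**
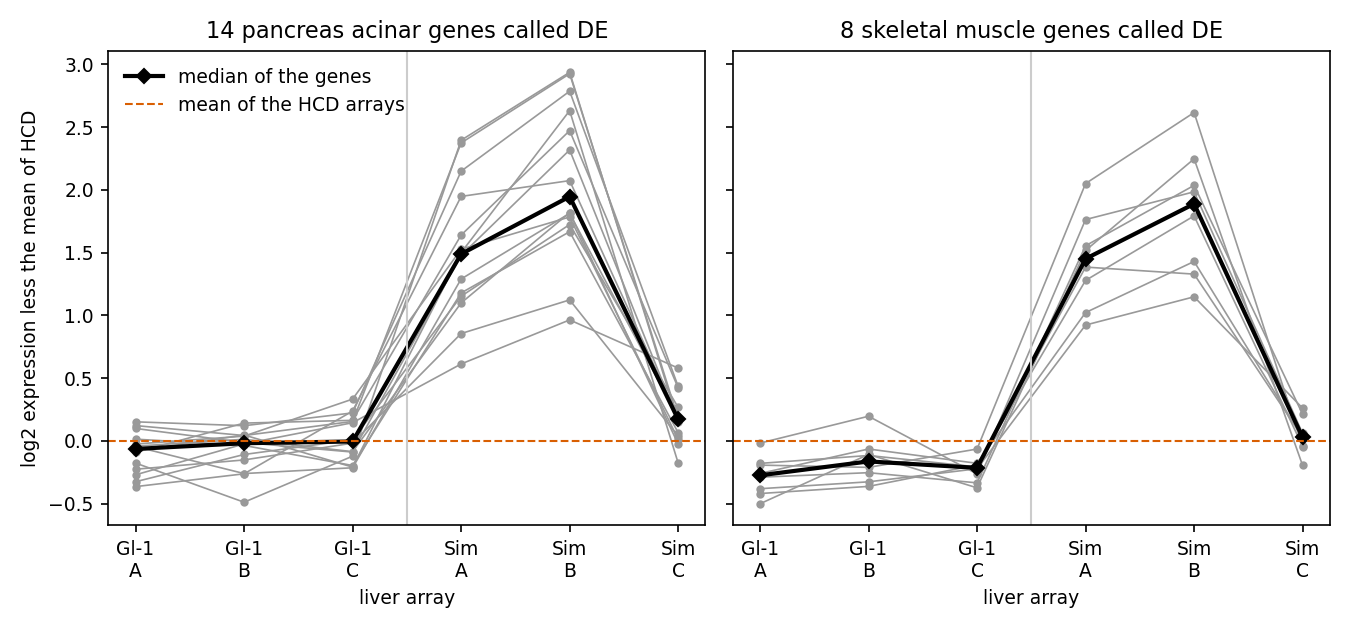
Log2 expression of each DE gene of the acinar pancreas list (left, 14 genes) and of the skeletal muscle list (right, 8 genes) on the 6 arrays, less its mean on the 3 HCD arrays (dashed line at 0), with grey lines for single genes and a black line for their median. The HCD+Sim arrays A and B are high in every gene, while HCD+Sim array C and the Gl-1 arrays are mostly near HCD. An exception is Zg16, with HCD+Sim array C at 5.715, close to array A at 5.748, and an HCD mean of 5.136.

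Among hepatic enzymes, 2 cytochromes were lower with Gl-1. Cyp2b9, a female-predominant drug-metabolizing P450, read 6.41, 6.07 and 6.96 with Gl-1 and 8.53, 7.47 and 8.52 with Sim. The groups did not overlap, and the cholesterol diet alone was as high as Sim at 8.71, 7.88 and 9.08, while Control was at 5.36 ± 0.24 (SD, n = 3). The difference was -1.70 (SE 0.21), a 3.24-fold lower level (limma adjusted p = 5.5e-06). Cyp2b9 differed from HCD by -2.08 with Gl-1 (limma adjusted p = 1.8e-07) and by -0.38 with Sim (limma adjusted p = 0.50). With Gl-2 it was at 5.34, 5.45 and 5.37, below the Gl-1 arrays. It was among the genes called in the liver arrays alone and against HCD+Sim array C alone. Its close relative Cyp2b10 differed by -0.27 (limma adjusted p = 0.29), and probes shared within this gene family make single members uncertain.

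Cyp4a14, a fatty acid hydroxylase and target of PPAR alpha, read 10.16, 9.12 and 10.60 with Gl-1 and 11.53, 10.63 and 12.00 with Sim. Array B was the lowest of each group, and the lowest Sim array stood just above the highest Gl-1 array. The difference was -1.43 (SE 0.33, limma adjusted p = 0.011). Against HCD, at 8.96, Cyp4a14 was 2.42 higher with Sim (limma adjusted p = 3.0e-05) and 0.99 higher with Gl-1 (limma adjusted p = 0.096). It was the single DE gene of 42 in the list of PPAR alpha and fatty acid oxidation genes (median -0.11). The call was lost in the fit to the liver arrays and without HCD+Sim array C, where the difference was -1.12.

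The genes that were higher with Gl-1 formed no group on the lists, on which 1 of the 12 had a place. Rarres1, a retinoic acid-responsive membrane protein, read 9.89, 9.77 and 9.91 with Gl-1 and 9.04, 8.98 and 8.67 with Sim, without overlap, and HCD was at 8.78 ± 0.15 (SD, n = 3). It differed by 0.96 (SE 0.12, a 1.94-fold higher level, limma adjusted p = 6.1e-06) and was DE in every alternative run. With Gl-2 it was at 9.44, 9.69 and 9.08, between Sim and Gl-1. Mup21, a major urinary protein and a male-biased product of the liver, read 10.49, 10.22 and 10.68 against 9.89, 9.59 and 9.39. Its groups did not overlap, and its difference was 0.84 (SE 0.12, limma adjusted p = 2.5e-05). HCD was at 10.13, closer to Gl-1, and probes of this family can cross-read. Dio1, the deiodinase that activates thyroid hormone, was at 10.63, 10.41 and 10.40 against 9.90, 10.13 and 9.28 and differed by 0.71 (limma adjusted p = 0.012), just past the fold threshold. It was not called without HCD+Gl-1 array A (0.63) or HCD+Sim array C (0.46).

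Several of the higher genes lost their call in fits with 1 array left out. Moxd1, a monooxygenase-like protein, read 10.38, 10.36 and 10.38 with Gl-1 but 9.84, 10.05 and 6.41 with Sim, so that the difference of 1.61 (SE 0.42, limma adjusted p = 0.024) rested on array C. Without that array it was 0.43. Magoh, a subunit of the exon junction complex, read 8.50, 7.73 and 9.17 against 7.90, 7.66 and 7.68, and the histone methyltransferase gene Setdb2 8.34, 7.65 and 8.83 against 7.74, 7.42 and 7.54. In both, the Gl-1 arrays A and C were high and array B was within the range of Sim, and their differences were 0.72 and 0.71. Slc8a1, a sodium and calcium exchanger, followed the same order at 6.63, 5.57 and 7.12 against 5.39, 5.82 and 5.47, a difference of 0.88. Rnase2a, an eosinophil-type ribonuclease, was at 6.73, 6.45 and 6.02 against 5.24, 6.37 and 4.58, with overlap, and differed by 1.01. Each of these 5 genes kept its call in 2 or 3 of the 6 fits with an array left out. Pyhin1, an interferon-inducible DNA-binding protein, differed by 0.74 and the serpin pseudogene Serpina4-ps1 by 0.72, and without HCD+Sim array C, when neither was called, by 0.56 and 0.46. The remaining 2 of the 12 were gene models.

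Of the lower genes outside the groups above, Prlr, the prolactin receptor, read 8.74, 8.59 and 8.82 with Gl-1 and 9.47, 9.27 and 9.64 with Sim, without overlap, a difference of -0.74 (limma adjusted p = 0.0054). Lynx1, a modulator of acetylcholine receptors, was at 5.81, 6.08 and 5.85 against 6.41, 6.76 and 6.74 and differed by -0.72 (limma adjusted p = 9.3e-05). Prlr lost its call without HCD+Gl-1 array B (-0.68) or HCD+Sim array C (-0.65), and Lynx1 without any of 4 of the arrays (-0.69 to -0.66). Nearest to the fold threshold among genes that passed the adjusted p were Gbp2, Setdb2, Dio1, Serpina4-ps1 and the kappa segment just named inside it, at absolute values of 0.70 to 0.72, and outside it Il1r1 at 0.70, Mylpf at -0.69, Zfp932 at 0.69, Mb at -0.68 and Hba-a2 at -0.68.

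**Figure D3:**
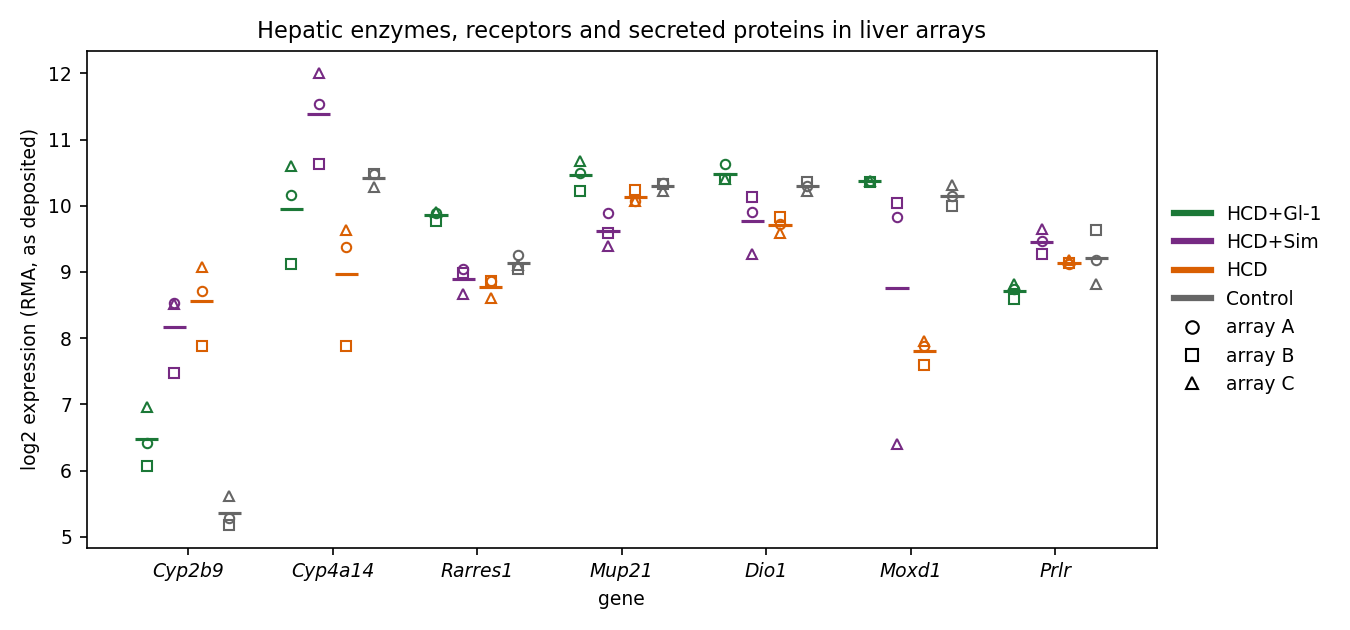
Log2 expression of 7 liver genes on each liver array, with one point per array and a bar at the mean of a group. Cyp2b9 is low with Gl-1 and in Control, Rarres1 is higher with Gl-1 than in the other 3 groups plotted, and the low Sim mean of Moxd1 rests on array C at 6.41.

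Sex-biased liver genes were set out because Cyp2b9 and Mup21 belong to them. Of 32 measured, 1 was higher and 1 lower by the DE call, and 4 were higher and 1 lower by the adjusted p alone. The 3 Gl-1 arrays lay wholly above the Sim arrays for 11 of the 32, where 3.68% of all genes did so. Cyp7b1, the oxysterol hydroxylase of the alternative bile acid pathway and male-biased in mice, read 11.78, 11.47 and 12.12 with Gl-1 and 11.27, 11.27 and 11.19 with Sim. The groups did not overlap. Its difference of 0.55 (95% interval 0.31 to 0.78, limma adjusted p = 0.0055) was short of the fold threshold. Selenbp2, a selenium-binding protein, and the peroxisomal hydrolase gene Nudt7 differed by 0.55 and 0.35.

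In lipid synthesis, uptake and bile acid genes no member was DE between the extract and the drug. None of 21 cholesterol synthesis, 23 sterol sensing and uptake and 25 fatty acid synthesis genes was DE. Nor was any of 17 lipid droplet and 27 bile acid synthesis and transport genes. In this order the list medians were 0.02, -0.12, -0.06, -0.07 and 0.05. For 9 of the 23 sterol sensing and uptake genes the Gl-1 arrays lay wholly below the Sim arrays, where 12.3% of all genes did so. Fasn, fatty acid synthase, was at 10.07, 10.29 and 9.60 against 10.16, 10.58 and 9.42, with array C the lowest in both groups. It differed by -0.06 (95% interval -0.47 to 0.35), while HCD was at 11.17. Acly, which supplies acetyl-CoA to lipid synthesis, differed by -0.14 (-0.41 to 0.12) and Srebf1, which encodes the factor that drives these genes, by -0.38 (-0.66 to -0.09, limma adjusted p = 0.11).

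The intervals describe the spread between arrays, and array C of each group was a mixture of pools A and B. That spread was estimated over the arrays of all tissues. The intervals can therefore be too narrow to bound how far the treatments could differ, and equal expression was not shown. For Sqle, squalene epoxidase, the 95% interval was -0.14 to 0.39, and for Scd1, a fatty acid desaturase, -0.13 to 0.23. Cyp7a1, the rate-limiting enzyme of bile acid synthesis, differed by 0.27 (-0.07 to 0.61). Some members passed the adjusted p below the fold threshold. Cyp51, a demethylase of sterol synthesis, differed by 0.38 and Lpin1, a phosphatidate phosphatase, by 0.63, both higher with Gl-1. The sterol exporter gene Abcg8 (-0.39) and Soat2 (-0.39), which esterifies cholesterol, were lower. So were Abcc3 of the bile acid list (-0.50, limma adjusted p = 0.00017) and Fitm1 of the lipid droplet list (-0.45, limma adjusted p = 0.0045). By the adjusted p, 1 cholesterol synthesis gene was higher and 0 lower, and 2 fatty acid synthesis genes were higher and 0 lower. In sterol sensing 0 were higher and 3 lower, in lipid droplets 0 and 1, and in bile acid genes 1 and 2. Lpin1 read 10.31, 10.13 and 10.33 with Gl-1 against 9.60, 9.79 and 9.48 with Sim, and HCD was at 10.50.

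**Figure D4:**
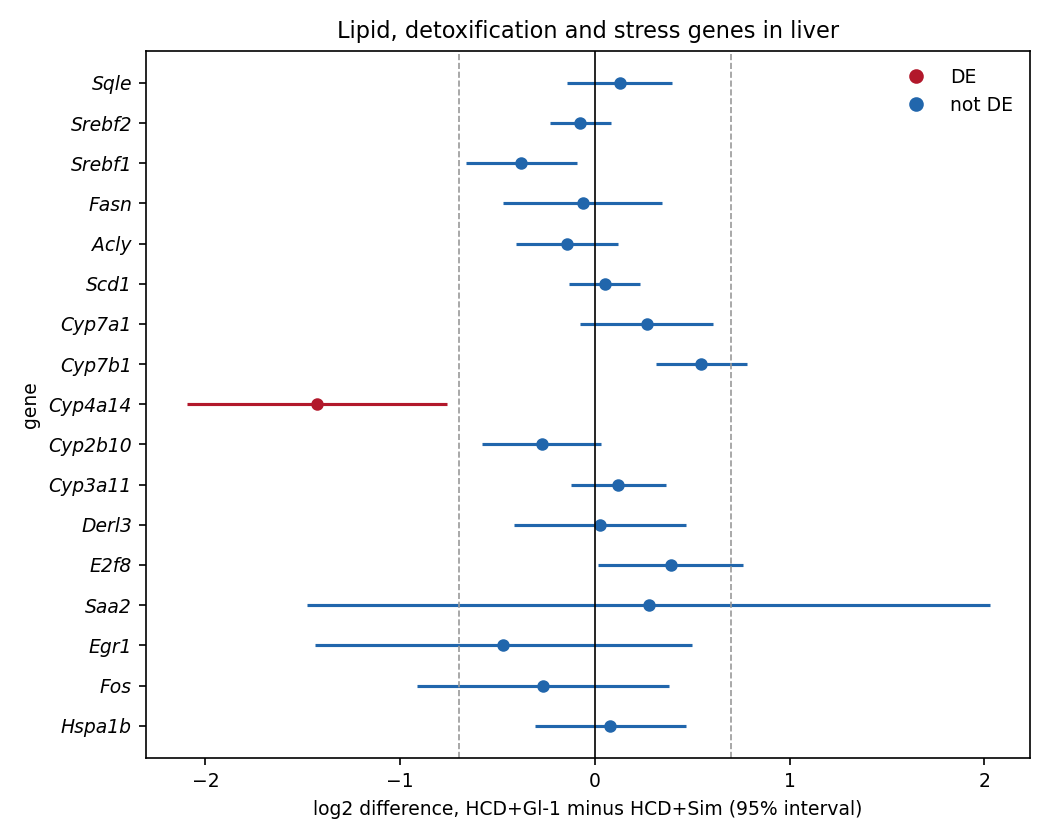
Log2 difference between HCD+Gl-1 and HCD+Sim in liver for 17 genes of lipid metabolism, detoxification and stress, with 95% intervals. Dashed lines mark the fold threshold of 0.7 in each direction, Cyp4a14 is the 1 gene called DE, and the widest interval, -1.48 to 2.03, is that of Saa2.

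Stress and inflammation lists gave few calls. None of 33 acute phase, 32 immediate early, 20 heat shock and 33 endoplasmic reticulum stress genes was DE. Neither was any of 24 clock, 29 glucose, 39 cell cycle, 41 phase II and 30 respiratory chain genes. For 12 of the 32 immediate early and 12 of the 41 phase II genes the Gl-1 arrays lay wholly below the Sim arrays. Of all genes 12.3% did so. The medians of these 2 lists were -0.21 and -0.06. Saa2, an acute phase serum amyloid, varied far more within than between the groups, at 11.28, 11.96 and 7.89 with Gl-1 and 11.95, 11.24 and 7.12 with Sim. Array C differed from the mean of A and B, taken before the log, by -3.76 with Gl-1 and by -4.51 with Sim, and HCD was at 7.23. The difference was 0.28 (95% interval -1.48 to 2.03). Egr1, an immediate early transcription factor, differed by -0.47 (-1.44 to 0.50), Fos by -0.27 (-0.91 to 0.38), the chaperone gene Hspa1b by 0.08 (-0.31 to 0.47) and Derl3, of endoplasmic reticulum quality control, by 0.03 (-0.41 to 0.47). The cell cycle factor E2f8 differed by 0.39 (0.02 to 0.76, limma adjusted p = 0.21).

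The same treatments were compared in kidney, where 8 genes were DE (0.0362%), 1 higher (0.00453%) and 7 lower (0.0317%) with Gl-1, and in brain, where 2 were (0.00906%). Of the 8 kidney genes, 4 were also DE in liver, all lower with Gl-1 in both, namely Tgtp2 (-0.80 in kidney), Prlr (-0.93), Igk-V1 (-0.73) and BC023105 (-1.07). Iigp1 was lower in kidney by -0.81, where liver gave 0.33. Over the 19 measured genes of the interferon gamma list the median was -0.30 in kidney and -0.26 in liver. Gbp2 (-0.53) and Gbp10 (-0.58) passed the adjusted p in kidney (0.014 and 0.021 by limma) but not the fold, and liver gave -0.06 for Gbp10. Cxcl9 differed in kidney by -0.55 (limma adjusted p = 0.29). Class II genes differed less in kidney, Cd74 by -0.29 and H2-Ab1 by -0.40, and none of them was DE there, though H2-Ab1 passed the adjusted p (0.022 by limma). The difference between the liver and kidney contrasts was itself DE for 53 genes (0.24%) and passed the adjusted p for 105 (0.476%), and 29 of the 55 liver genes were among them. For Cd74 it was -0.77 (limma adjusted p = 0.00084), for H2-Eb1 -0.58 (limma adjusted p = 0.060) and for Cyp2b9 -1.73 (limma adjusted p = 0.0042). The acinar and muscle lists had kidney medians of 0.07 and 0.07.

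**Figure D5:**
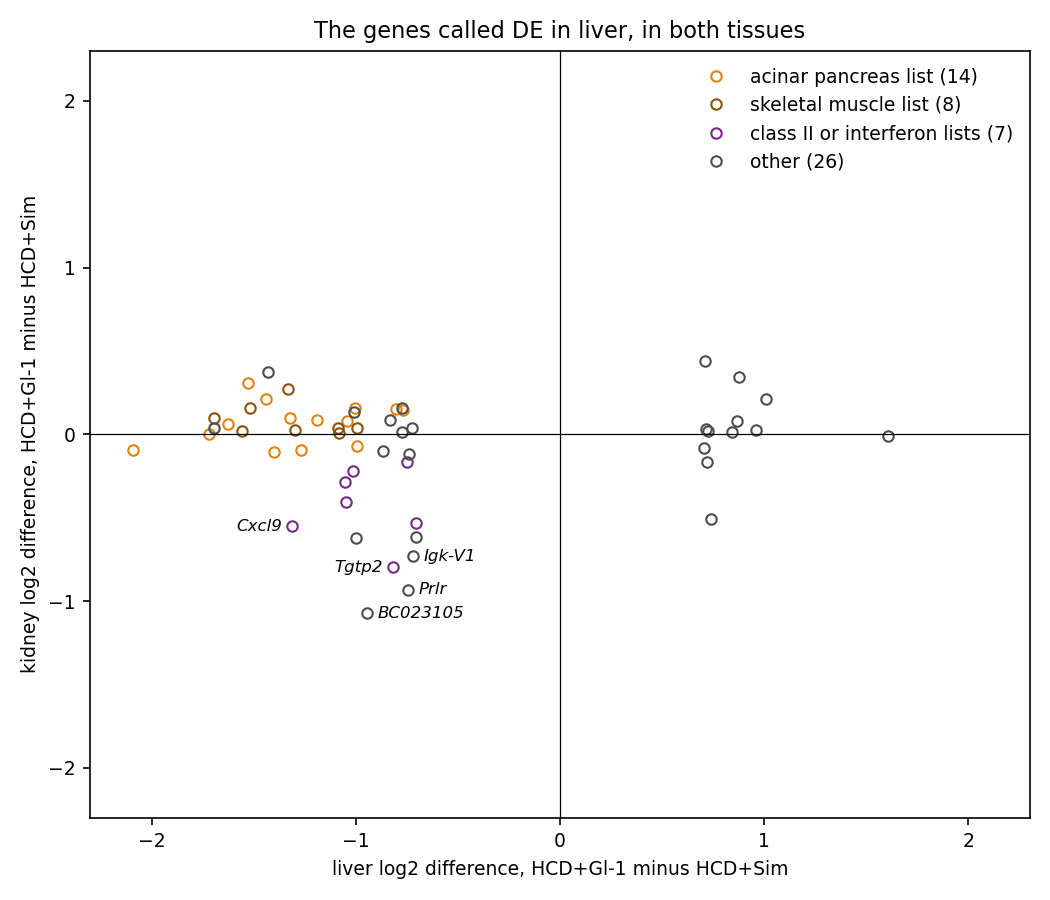
Log2 difference between HCD+Gl-1 and HCD+Sim in liver (horizontal) and kidney (vertical) for the 55 genes called DE in liver, coloured by list. The 14 acinar and 8 muscle genes lie near 0 in kidney, the 7 class II and interferon genes lie below 0, and the 26 others include Prlr and BC023105, lower in both tissues.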

How the data were processed

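The authors started from array intensities, to which they applied RMA background correction and quantile normalization in oligo, followed by ComBat for a batch effect. One probe set per gene was kept, the one that varied most by interquartile range. The table they deposited holds log2 values. The batches that ComBat adjusted, and tool versions, are not given in the sources used here, and an adjustment of this kind can shift or shrink differences that run with a batch. Tissue, diet and pool letter were taken from the titles in the labels.

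In R 4.3.3, limma 3.58.1 was run on the 45 arrays together, with a mean for each of 15 groups, empirical Bayes moderation and, per contrast, Benjamini-Hochberg adjustment over 22080 genes. The scripts were tested on simulated data. The DE thresholds, 0.7 on the log2 scale and 0.05 for the adjusted p, were those of the study's methods. An exact permutation test of 3 against 3 arrays cannot go below p = 0.1. The p-values measure the spread between these arrays, which stand for 2 pools of mice per group. Array medians were 6.76 to 6.92, and the number of arrays limits the precision. Plots used Python 3.11.15 and matplotlib 3.10.9.

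Named genes were up to 15 DE genes in each direction with the largest difference and no overlap, DE members of the lists, a set of 20 metabolic and stress genes, of which 17 are plotted and some are not reported here, and the 5 genes nearest to the threshold on each side. Other DE genes named, and the class I, class II, interferon gamma and dendritic cell lists, were chosen after their values were seen. All members and lists were chosen with earlier results of these data known. Names turned into dates (13 genes) were tested and are not named. Alternatives were other sets of arrays in the fit, each array left out, pool letter as a block, filters on dim genes, a further quantile normalization and other moderation.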

Additional observations from a re-analysis of the deposited data

Results flagged for a closer look

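These genes are listed because the difference between HCD+Gl-1 and HCD+Sim was not the same in liver as in kidney, by the contrast of the 2 differences in the limma fit to 45 arrays. The contrast was DE for 53 genes, and 36 of the genes described here were among them. Every value is the liver difference less the kidney difference on the log2 scale. Groups of 3 arrays were not screened for single outlying arrays.

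In acinar pancreas genes the liver difference was the lower one, by -2.0 for Amy2a5, -1.84 for Rnase1, -1.72 for Ctrb1, -1.65 for Cpa1, -1.42 for Ctrl, -1.28 for Pnlip, -1.18 for Cel, -1.12 for Clps, -0.96 for Reg1, -0.92 for Zg16 and -0.72 for Prss2. Muscle genes gave -1.79 for Atp2a1, -1.68 for Acta1, -1.60 for Myh4, -1.58 for Myh1, -1.13 for Tpm2, -1.09 for Tnnc2, -1.03 for Myh2, -0.83 for Mb, -0.78 for Ckmt2, -0.76 for Xirp2, -0.73 for Tnnt3 and -0.73 for Myoz1. The acinar list mean was high on the liver HCD+Sim arrays A and B alone, the muscle list mean was highest on them with Control close to array A, and the part of those arrays in these values was not tested apart.

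Of the antigen presentation genes, Cd74 gave -0.77 (limma adjusted p = 0.00084) and H2-Aa -0.80 (limma adjusted p = 0.031). The globin genes Hbb-bs and Hba-a2 gave -0.93 and -0.99, Cyp2b9 -1.73 and Lynx1 -0.76. Values in the other direction were 1.14 for Iigp1 (limma adjusted p = 0.00064), which was higher with Gl-1 in liver by 0.33 and lower in kidney by -0.81, and 1.25 for Pyhin1, at 0.74 in liver and -0.51 in kidney. Rarres1 gave 0.93, Mup21 0.83, Selenbp2 0.80, Zfp932 0.75 and Il1r1, an interleukin 1 receptor, 0.75.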

How the results depend on the processing

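All 55 DE genes kept their sign in every alternative in which they were tested but 1, given below. The count of 55 (12 higher, 43 lower with Gl-1) became 15 (3 and 12) with the 15 liver arrays only and 7 (1 and 6) with the 6 compared arrays only. It was 902 (354 and 548) by adjusted p with no fold threshold. With pools A and B only it was 69 (9 and 60), 40 of the 55 among them. Leaving out each array in turn gave 48 to 92 genes, 6 to 34 higher and 34 to 61 lower, and 27 of the 55 were kept in all 6 of these fits. The count of 92, with 34 higher, came without HCD+Gl-1 array B, the 6 higher came without HCD+Sim array C, and 19 higher came without HCD+Sim array A. A filter that asked for a log2 value over 6 in 3 of the compared arrays left 28 lower genes. Against HCD+Sim array C alone, chosen after the data had been seen, 131 genes were DE, 58 higher and 73 lower, 23 of the 55 among them, and the signs of Cpb1 and Pnliprp1 turned, to 0.0947 and 0.1031. The lone array is assumed there to vary like the other groups. The acinar list had 9 DE genes without HCD+Sim array B and 19 without array C, and the muscle list 16 without array C. The cause of these changes was not tested. With pool letter as a replicate block the count was 55 (12 and 43), the same genes. Same-letter arrays of the groups had deviation correlations of 0.19, 0.11 and 0.089, each the best of its letter, but the letters hold different mice. A second quantile normalization moved the median of all genes from -0.05 to -0.01 and gave 50 genes, 13 higher and 37 lower.

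Precision is set by 3 arrays from 2 pools per group and by the signal of dim genes, of which 20 of the 42 acinar genes were under log2 6 on all Gl-1 arrays. ComBat was applied before deposit and could not be undone here.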
